A study of Mus musculus with 23 samples.

Results

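Natural killer (NK) cells of the mouse spleen were compared with NK cells of the mouse liver by ATAC-seq, an assay that cuts accessible DNA with a transposase and counts the fragments. The comparison holds 4 of the 23 samples of the series, 2 libraries from spleen and 2 from liver, chosen by the organ and cell population in their labels. All 51412 peaks of the table were taken in. The same table holds 2 libraries each of type 1 innate lymphoid cells (ILC1s) from liver and from salivary gland, which share the fit and are given beside the NK values. The labels name Mus musculus and give no strain, age or treatment, and no genotype beyond the reporter names below. Each library came from 50000 sorted and frozen cells, and the titles number the mice 1 and 2 without saying whether one number is one animal across organs. The design text describes the NK gate as NK1.1+ NKp46+ CD49a- CD49b+ and the ILC1 gate as NK1.1+ NKp46+ CD49a+. The cell type label instead names S1pr5eGFP+ cells for NK cells and GzmC+GzmcFM+ cells for both ILC1 groups. The ILC1 values may therefore be those of a granzyme C-marked subset, and the 2 descriptions were not reconciled here. Spleens were pressed between glass slides, whereas livers were cut, digested with collagenase D for 30 minutes and spun on Percoll, so organ and preparation cannot be told apart.

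NK cells are cytotoxic lymphocytes that circulate through blood, spleen and liver. The transcription factor KLF2 keeps lymphocytes in circulation by driving genes for egress receptors such as S1PR1, and S1PR5 guides NK cells out of tissue. Itga1 encodes CD49a, a collagen-binding integrin chain that marks liver ILC1s and resident lymphocytes and that the NK gate excludes. Active genes have open promoters, which tend to be open in many cell types, while open elements in introns and between genes differ more from one cell type to another.

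Promoter sequences are shown for the markers Klf2 and Itga1 and for 3 genes whose promoter peak differed between the organs under every scaling described below. Each is the 250 bases before the gene's start in RefSeq on GRCm38.p6, read 5′ to 3′ on the gene's strand. Klf2 (chr8:72318812-72319061, + strand) lies in a promoter peak that was higher in spleen NK cells under 8 of 9 scalings. Capitals mark the letters of a KLF factor motif, CCNCNCCC on either strand, with 4 overlapping matches in 2 stretches.
Klf2: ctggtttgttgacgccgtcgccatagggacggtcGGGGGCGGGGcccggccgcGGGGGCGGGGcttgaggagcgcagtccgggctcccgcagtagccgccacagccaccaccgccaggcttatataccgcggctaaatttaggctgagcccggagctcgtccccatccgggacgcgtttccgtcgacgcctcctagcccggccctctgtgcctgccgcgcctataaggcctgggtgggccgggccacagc
Itga1 (chr13:115101965-115102214, - strand) lies in a promoter peak that did not pass the test, and these letters hold no KLF match.
Itga1: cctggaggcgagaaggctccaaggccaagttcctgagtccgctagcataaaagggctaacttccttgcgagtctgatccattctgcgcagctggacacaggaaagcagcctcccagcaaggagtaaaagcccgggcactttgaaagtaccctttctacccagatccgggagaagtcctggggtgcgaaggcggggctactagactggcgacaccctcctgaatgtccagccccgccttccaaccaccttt
Pcx (chr19:4510222-4510471, + strand), for pyruvate carboxylase, and Mrpl32 (chr13:14613038-14613287, - strand), for a mitochondrial ribosomal protein, lie in peaks higher in spleen. Capitals mark 3 CCAAT boxes in Pcx and, in Mrpl32, the palindrome that NRF1 binds.
Pcx: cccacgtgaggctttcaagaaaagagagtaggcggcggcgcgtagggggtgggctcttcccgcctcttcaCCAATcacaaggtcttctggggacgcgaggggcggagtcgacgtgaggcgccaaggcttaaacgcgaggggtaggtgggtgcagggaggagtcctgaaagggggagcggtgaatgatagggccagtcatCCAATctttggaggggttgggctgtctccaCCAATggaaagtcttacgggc
Mrpl32: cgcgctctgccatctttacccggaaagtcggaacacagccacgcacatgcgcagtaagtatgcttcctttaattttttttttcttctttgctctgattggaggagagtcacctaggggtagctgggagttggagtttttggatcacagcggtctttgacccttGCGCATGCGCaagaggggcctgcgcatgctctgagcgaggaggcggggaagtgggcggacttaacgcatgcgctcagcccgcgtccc
Ccr8 (chr9:120091883-120092132, + strand), for a chemokine receptor, lies in a peak higher in liver. Capitals mark its 1 CCAAT box, read on the other strand as ATTGG.
Ccr8: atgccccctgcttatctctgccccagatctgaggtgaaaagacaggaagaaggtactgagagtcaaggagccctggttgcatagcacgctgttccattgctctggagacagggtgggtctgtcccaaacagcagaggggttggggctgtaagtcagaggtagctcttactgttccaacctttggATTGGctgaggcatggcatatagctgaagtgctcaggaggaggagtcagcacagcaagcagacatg
The Klf2 window held 29 CpG dinucleotides and the Ccr8 window 1, with 16 in Pcx, 17 in Mrpl32 and 10 in Itga1.

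The liver NK libraries held 6390417 and 5609587 counts in peaks and the spleen NK libraries 14270504 and 11101944. Depth therefore differed between the organs, and at an equal scaled level the liver values carry the larger counting error. Replicates correlated across 51292 peaks with r = 0.953 in liver and 0.979 in spleen (log2 of the scaled counts, a description over peaks). The libraries also differed in how their counts were spread. The 5141 peaks with most counts took 33.6% and 36.9% of the counts in liver NK cells and 47.5% and 45.6% in spleen NK cells, and the lower-ranking 25706 peaks took 21.1% and 18.5% against 10.3% and 11.6%. Promoter peaks took 53.6% and 55.4% in liver and 65.2% and 63.8% in spleen. The liver ILC1 libraries, from the same kind of preparation, stood at 35.8% and 40.6% for the same 5141 peaks, and the salivary gland ILC1 libraries at 43.2% and 43.5%. The part of this difference in each result below was not tested beyond the scalings given.

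With TMM scaling, which sets libraries level on the trimmed mean of all peaks, 20847 of 51292 peaks passed the test between the organs at an adjusted p below 0.05 (40.6%). Of these, 10704 were higher in spleen (20.9%) and 10143 in liver (19.8%). Without spleen replicate 1 the counts were 6828 and 4555, and without liver replicate 1 they were 6049 and 4992. The even balance hides a split by peak level and type. Promoter peaks were mostly higher in spleen, with 7870 higher and 1837 lower of 17983 and a median log2 fold change of 0.38. Intron peaks were mostly higher in liver, with 1228 higher in spleen and 3815 higher in liver of 15228 and a median of -0.33. Intergenic peaks gave 1265 and 3647 of 14657 (median -0.31), and exon peaks 341 and 844 of 3424 (median -0.28). Promoter peaks are also the strong ones. Peaks were ranked into 8 equal classes by mean level over all 8 libraries, ILC1s included. The median log2 fold change ran from -0.73 in the weakest class, where 15.7% were promoters, to 0.78 in the strongest, where 79.3% were. In the weakest class 15 peaks were higher in spleen and 1815 in liver, and in the strongest 5480 and 18.

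**Figure D1:**
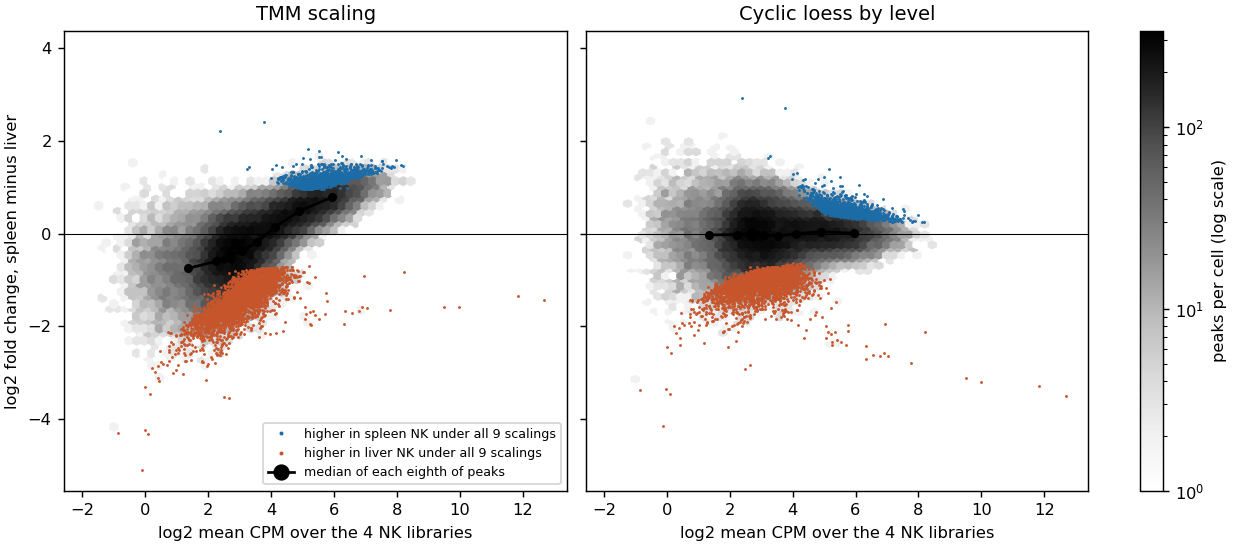
Log2 fold change of each peak (spleen minus liver NK cells) against its log2 mean CPM over the 4 NK libraries, with TMM scaling at left and cyclic loess scaling at right. Grey cells count peaks, and coloured points are peaks with the same call under all 9 scalings. Black circles are medians of 8 equal classes by the mean CPM shown. In the classes of the text, ranked over all 8 libraries, medians climb from -0.73 to 0.78 under TMM and lie near 0 under cyclic loess.

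The balance of the organs changed with the scaling. Total counts in peaks gave 5277 peaks higher in spleen and 18704 in liver, so that 22.0% of calls pointed to spleen. Totals over promoter peaks gave 2680 and 26442 (9.2%), and TMM on promoter peaks 4438 and 20589 (17.7%). Upper-quartile factors gave 6754 and 15577 (30.2%), and TMMwsp factors, a form of TMM for sparse counts, 7955 and 13577 (36.9%). RLE factors, the median ratios of DESeq2, gave 10538 and 10029 (51.2%), close to the 51.3% of TMM. TMM on non-promoter peaks turned the balance to spleen, with 14137 and 6739 (67.7%). Cyclic loess, which removes any average difference at each peak level, gave 3443 higher in spleen (6.71%) and 4437 in liver (8.65%), 7880 in all (15.4%) and 43.7% to spleen. Those counts fell to 1181 and 1777 without spleen replicate 1, to 828 and 1465 without liver replicate 1 and to 1867 and 2707 without liver replicate 2. These scalings also moved the median log2 fold change of all peaks, from -0.73 with promoter totals to 0.10 with non-promoter TMM, with -0.11 for TMM. Of the peaks called higher in spleen under TMM, 265 were called higher in liver under cyclic loess. None of the 7 other scalings turned a TMM call around. The direction of the organ difference over the whole peak set thus depended on the scaling chosen.

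**Figure D2:**
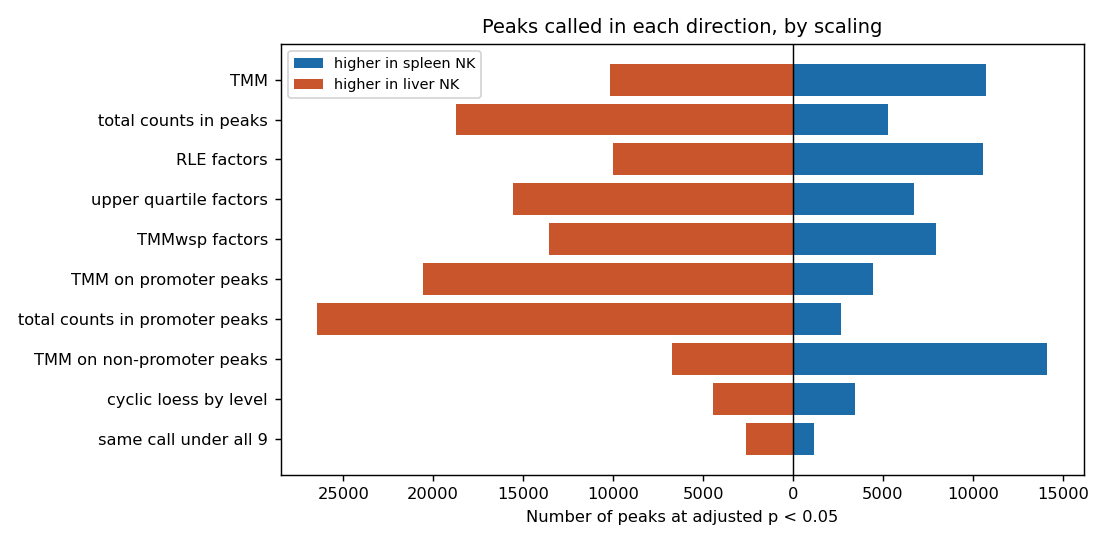
Number of peaks with an adjusted p below 0.05 in each direction under each of the 9 scalings, and (bottom bar) with the same call under all 9; bars to the right are peaks higher in spleen NK cells and bars to the left higher in liver NK cells. Calls to spleen range from 2680 to 14137 and calls to liver from 4437 to 26442, against 1176 and 2598 under all 9.

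A smaller set of peaks had the same call under all 9 scalings. It held 3774 peaks (7.36%), of which 1176 were higher in spleen (2.29%) and 2598 in liver (5.07%). This rule was not even between the organs. From the TMM median of -0.11, the scalings reached further toward liver (-0.73 with promoter totals) than toward spleen (0.10 with non-promoter TMM). A call to spleen therefore had to hold over the larger shift, and all counts under the 9 scalings depend on which scalings were included. The 2 sets differed in kind. Of the peaks higher in spleen 1079 were promoter peaks, and their median level was 70.7 CPM (the count scaled to the size of its library) in spleen and 31.7 in liver NK cells. Of the peaks higher in liver 2071 lay outside promoters, 880 in introns, 927 between genes and 264 in exons, with medians of 11.9 CPM in liver and 4.61 in spleen. The sets were smaller when a library was left out. Without liver replicate 1, 449 and 672 peaks were called under all 9 scalings, and without spleen replicate 2, 869 and 2278. Without spleen replicate 1 the counts were 592 and 930, and without liver replicate 2, 697 and 1553. A core of 164 peaks higher in spleen and 305 higher in liver was called in every one of these fits. Of the listed genes' peaks called under all 9 scalings, 7 higher in spleen and 59 in liver, the core held 1 and 7. They are the Ski promoter toward spleen, and toward liver 1 peak each of Itga1, P2rx7, Stat4, Irf4 and Rrm2 and both peaks of Ccr8. In bulk libraries a change in the share of cells and a change within each cell cannot be told apart. Results below are given with TMM values, with the cyclic loess value beside them, and with the number of scalings that made the call.

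Klf2, the factor of lymphocyte circulation, had its strongest peak over the promoter (chr8:72318558-72320764). It read 196.9 and 195.9 CPM in spleen and 73.5 and 109.9 CPM in liver NK cells, against group means of 54.0 CPM in liver and 58.1 CPM in salivary gland ILC1s. Both spleen libraries stood above both liver libraries, and the spleen level was 2.15-fold higher (log2 fold change 1.10 ± 0.21 SE, adjusted p = 2.36e-06). Such separation of the 2 NK groups, in either direction, held for 70.8% of all peaks tested. Under cyclic loess the difference was 0.22 (adjusted p = 0.133), so the Klf2 promoter was called under 8 of the 9 scalings. Peaks of its level had a median log2 fold change of 0.78 under TMM. Downstream of Klf2, the peak at 10.9 kb read 12.9 and 17.2 CPM in liver and 16.0 and 18.6 CPM in spleen, with overlapping groups and a log2 fold change of 0.20 (adjusted p = 0.564). Cyclic loess called that peak higher in spleen, at 0.70 (adjusted p = 0.0444). The peak at 12.1 kb stood at 5.22 and 4.99 CPM in liver and 2.95 and 3.71 CPM in spleen and did not pass (-0.62, adjusted p = 0.236).

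Genes of egress and homing, a list that includes Klf2 and its peaks, had calls in both directions. The list of 14 genes had 12 with peaks and 50 peaks. Under TMM 11 were higher in spleen (22.0%, near the 20.9% of all peaks) and 3 in liver (6.00%, beside 19.8%). Their median was 0.22 against -0.11 over all peaks. Under cyclic loess the counts were 7 and 2, beside 6.71% and 8.65% of all peaks, with a median of 0.16 against -0.01. Under all 9 scalings they were 0 and 1 (2.0%), beside 2.29% and 5.07% of all peaks. S1pr5, the egress receptor in the name of the sorting reporter, had a promoter-type peak 1.88 kb downstream of its start (chr9:21246276-21246848) at 22.3 and 19.4 CPM in spleen and 10.2 and 15.6 CPM in liver NK cells, and at 2.20 and 1.51 CPM in the ILC1 groups. The spleen libraries were above the liver libraries (0.71 ± 0.26, adjusted p = 0.0213), and cyclic loess widened the difference to 1.23 (adjusted p = 0.00054), but only 4 of the 9 scalings called it. An intergenic peak of S1pr1, the main receptor for exit into lymph and blood, reached 0.53 (adjusted p = 0.0129) under TMM and 0.06 (adjusted p = 0.828) under cyclic loess. The 1 peak with the same call under every scaling went to liver. It lay in an intron of Cx3cr1, the fractalkine receptor of patrolling and mature cells, 37.5 kb downstream of the start. It read 12.9 and 14.3 CPM in liver and 6.47 and 7.81 CPM in spleen (-0.93, adjusted p = 0.00132, cyclic loess -0.85). Another Cx3cr1 intron peak, at 28.7 kb, went toward spleen, with 26.4 and 20.6 CPM against 16.6 and 19.0 CPM in liver. It did not pass under TMM (0.41, adjusted p = 0.158) but was called under cyclic loess (0.83, adjusted p = 0.0104). Under TMM itself the call of the Cx3cr1 peak at 37.5 kb was lost without spleen replicate 1. Those of S1pr5 and S1pr1 were lost without spleen replicate 1 or liver replicate 1.

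Itga1 had 13 peaks, and these did not move as one. The promoter at its start (chr13:115101045-115102305) read 13.2 and 14.0 CPM in liver NK cells and 18.3 and 14.2 CPM in spleen NK cells, a difference of 0.26 that did not pass (adjusted p = 0.324). ILC1s stood well above both, at 28.1 CPM in liver and 68.8 CPM in salivary gland. Deep in the gene, 2 intron peaks were higher in liver NK cells under every scaling. The one 73.4 kb downstream of the start (chr13:115028075-115029104) read 6.40 and 6.11 CPM in liver and 0.900 and 1.17 CPM in spleen, a level 6.04-fold higher in liver (-2.59 ± 0.44, adjusted p = 2.79e-07, cyclic loess -1.93). This call held in all alternative fits, each left-out library included. The one 44.7 kb downstream (chr13:115056849-115057706) read 6.00 and 5.63 CPM in liver and 0.982 and 1.56 CPM in spleen (-2.20 ± 0.44, adjusted p = 1.15e-05, cyclic loess -1.53). It missed the threshold in the cyclic loess fits without spleen replicate 1 or without liver replicate 1. In liver ILC1s these 2 peaks stood at 4.99 and 4.54 CPM, near the liver NK level, and in salivary gland ILC1s at 3.80 and 2.81 CPM. A promoter-type peak 11.9 kb downstream was called higher in spleen under TMM (0.46, adjusted p = 0.0376), but not without spleen replicate 1 or liver replicate 1, and stood at -0.14 under cyclic loess, which did not call it.

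**Figure D3:**
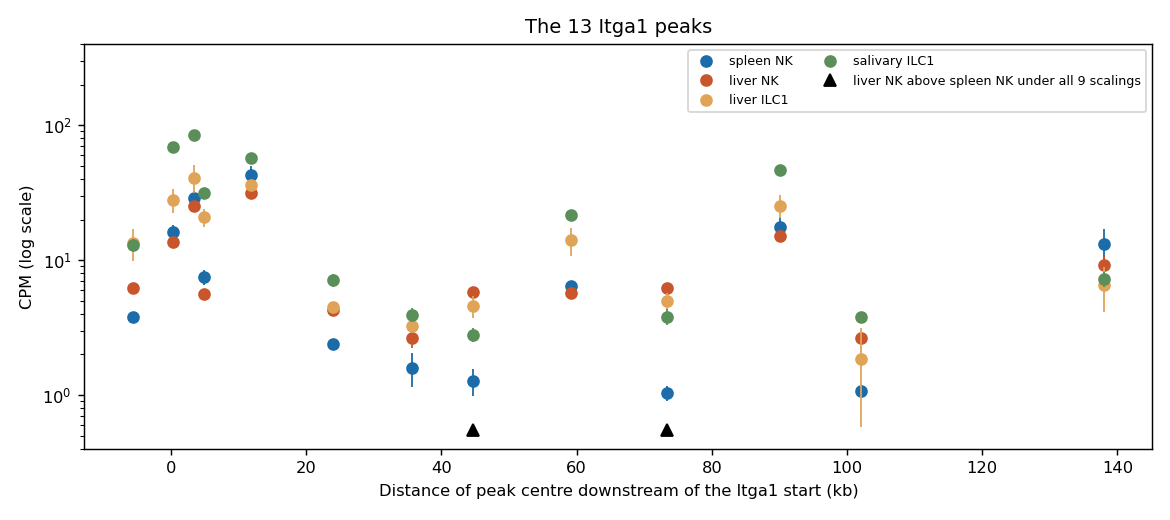
Mean CPM (log scale) of the 13 Itga1 peaks in each of the 4 sorted groups against distance from the gene's start; vertical lines span the 2 libraries of a group, and triangles mark the peaks higher in liver than spleen NK cells under all 9 scalings. The 2 marked intron peaks, at 44.7 and 73.4 kb, are near 6 CPM in liver NK cells and near 1 CPM in spleen NK cells, while at the start both NK groups lie below both ILC1 groups.

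Among genes of tissue residency, the peaks called under all 9 scalings were all higher in liver. The list of 18 genes had 92 peaks. Under TMM 19 were higher in spleen (20.7%) and 24 in liver (26.1%), beside 20.9% and 19.8% of all peaks. Under cyclic loess 3 and 19 were called, beside 6.71% and 8.65% of all peaks, and under all 9 scalings 0 and 11. That is 12% of the list's peaks, beside 5.07% of all peaks, and the count was 5 to 7 whichever of the 4 NK libraries was left out. The 11 peaks belong to 7 genes, and 2 of them, the Itga1 peak at 73.4 kb and the P2rx7 promoter-type peak, were called under all 9 scalings in each of those fits. P2rx7, the ATP-gated channel of tissue-resident lymphocytes, had a promoter-type peak at 18.8 and 19.1 CPM in liver and 8.10 and 9.28 CPM in spleen, with liver ILC1s at 54.8 CPM (-1.13 ± 0.22, adjusted p = 4.15e-06, cyclic loess -1.35). Another P2rx7 peak, 27.7 kb downstream, went the other way under TMM and cyclic loess (0.87 and 1.22). Zfp683, which encodes the residency factor Hobit, had a promoter peak at 7.57 and 8.53 CPM in liver and 3.76 and 3.42 CPM in spleen, well under the 29.8 and 23.4 CPM of the ILC1 groups (-1.15 ± 0.28, adjusted p = 0.000253). Cdh1, for the adhesion molecule E-cadherin, gave 4 of the 11, with log2 fold changes from -1.07 to -1.78. Rgs2, a brake on G protein signalling, had an intergenic peak at 12.7 and 14.5 CPM in liver and 5.97 and 4.88 CPM in spleen (-1.31), whereas its promoter was called higher in spleen under TMM (0.79) and higher in liver under cyclic loess (-0.32). Ahr, a ligand-activated factor of tissue lymphocytes, had an intron peak at -0.84, while its promoter was called higher in spleen under TMM (0.62, cyclic loess -0.11). Csf1, the macrophage growth factor, had a promoter-type peak at -1.21. Under TMM itself the Ahr intron call was lost without spleen replicate 1 or liver replicate 1, and those of the Cdh1 peaks at -1.07 and -1.12 without spleen replicate 1 and liver replicate 1 in turn. Under cyclic loess the Csf1 call was lost without any 1 of the 4 libraries, and that of the Zfp683 promoter without liver replicate 2. Intergenic peaks of Zfp683 stood at 0.45 and 0.47 toward spleen under TMM and at -0.08 and 0.06 under cyclic loess. The 3 peaks of Cxcr6, the receptor that holds ILC1s in the liver sinusoids, stayed low in all NK libraries, at 1.06 to 3.92 CPM against group means of 7.42 to 26.0 CPM in ILC1s, and 1 of them was called higher in liver under TMM (-1.19, adjusted p = 0.0229) but not under cyclic loess (-0.58, adjusted p = 0.396), nor under TMM without spleen replicate 1 or liver replicate 2.

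**Figure D4:**
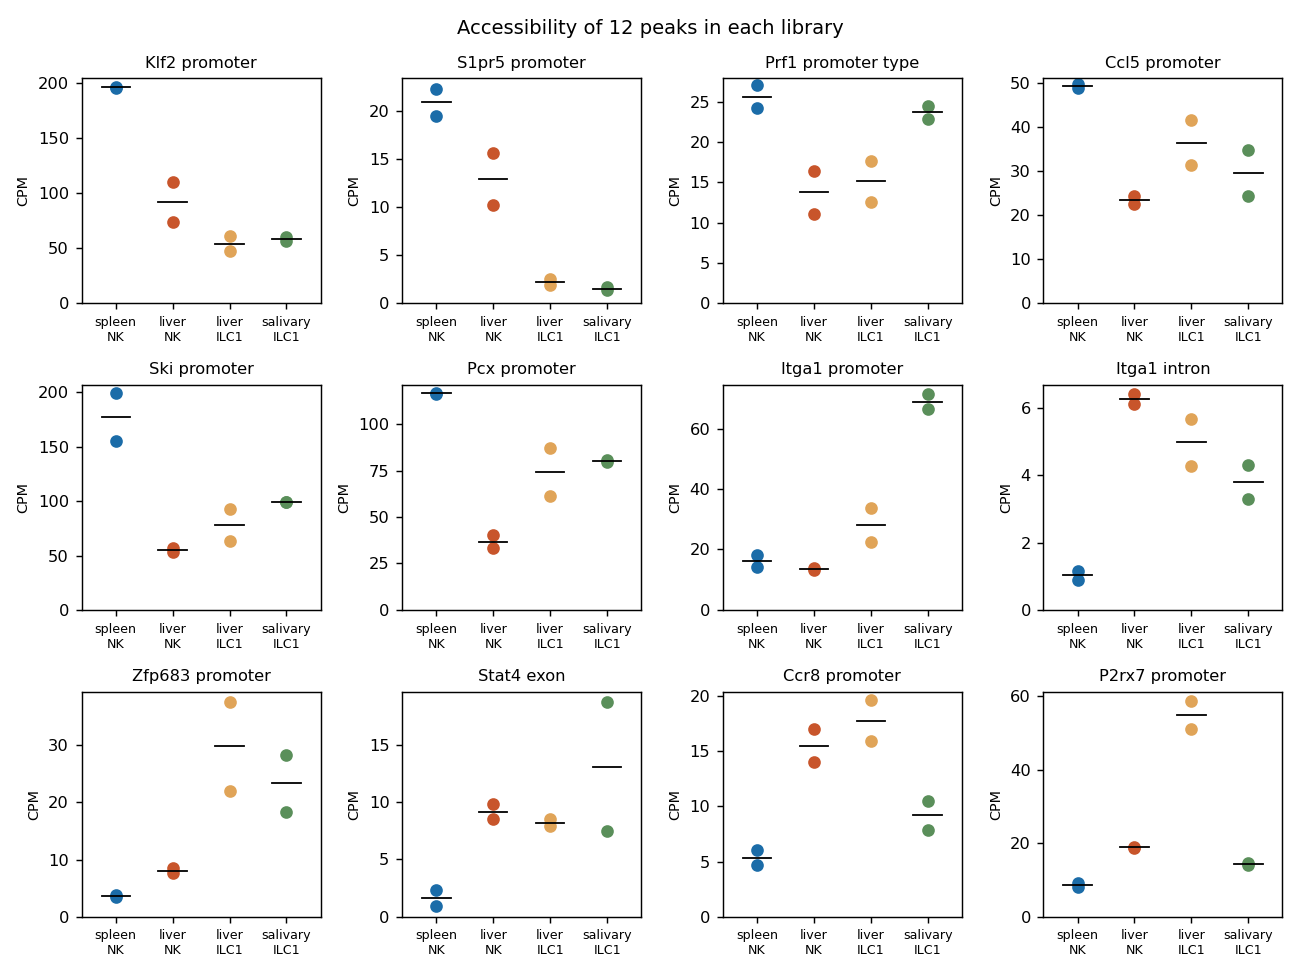
CPM of 12 peaks in each library (points) with the group mean (bar), for spleen NK, liver NK, liver ILC1 and salivary gland ILC1 libraries; each panel has its own axis from 0. The Klf2, S1pr5, Prf1, Ccl5, Ski and Pcx peaks are higher in both spleen NK libraries than in both liver NK libraries, the Itga1 intron, Zfp683, Stat4, Ccr8 and P2rx7 peaks are lower, and the Itga1 promoter did not pass the test.

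The 12 peaks named for their fold toward spleen were all of promoter type. For each gene the peak of smallest p was taken, and of these peaks the 12 with the largest log2 fold changes in each direction were named, at 5 CPM or more in the higher group. All 24 had the same call under every scaling. Ski, a nuclear brake on TGF-beta signalling, had the second largest fold toward spleen among these 12 peaks, with 1 peak per gene, at its promoter (chr4:155222775-155224042). It read 199.2 and 155.4 CPM in spleen and 53.6 and 56.8 CPM in liver, 3.21-fold higher in spleen (1.68 ± 0.21, adjusted p = 2.84e-12, cyclic loess 0.75). The Pcx promoter read 116.7 and 116.4 CPM in spleen and 33.2 and 40.1 CPM in liver (1.67, adjusted p = 8.85e-13, cyclic loess 0.85). The Mrpl32 promoter read 144.4 and 103.9 CPM in spleen and 37.5 and 44.9 CPM in liver (1.60, adjusted p = 5.06e-12). In both, ILC1 group means lay between the NK groups, from 42.9 to 80.2 CPM. The methyltransferase subunit gene N6amt1 and Wdr92 (both 1.64), Tmem107 (1.62), the spliceosomal RNA gene Rnu5g (1.60), Tmem80 and Cdca2 (both 1.58), the ubiquitin ligase gene Rnf5 (1.57) and the phosphatase gene Mtmr4 (1.56) made up the rest beside Tex14.

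Tex14, known for its role at the intercellular bridges of germ cells, held a cluster of spleen-higher peaks. Of its 11 peaks, 6 were higher in spleen and 1 in liver under every scaling, and the peak singled out by the naming rule stood at 59.7 and 51.9 CPM in spleen and 13.6 and 18.2 CPM in liver (1.82 ± 0.20, adjusted p = 1.49e-16, cyclic loess 1.39). The authors call these promoter peaks, although they lie 17.9 to 66.6 kb from the RefSeq start of Tex14. The one at 66.6 kb (chr11:87471431-87471891) had the largest difference of the 6, with 21.3 and 24.2 CPM in spleen against 4.57 and 4.02 CPM in liver and 7.27 and 7.72 CPM in the ILC1 groups (2.40 ± 0.28, adjusted p = 1.11e-13, cyclic loess 2.70). Between them, the peaks at 48.9, 56.0, 63.2 and 66.0 kb did not pass (0.01, -0.71, 0.28 and 0.57), and the intron peak at 50.3 kb was higher in liver, at 5.22 and 5.95 CPM against 1.47 and 1.27 CPM (-2.01, adjusted p = 6.99e-06). The difference at Tex14 was thus not shared by every peak of the interval.

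Few peaks of the gene lists kept a call toward spleen under every scaling. Ccl5, a chemokine that NK cells store and release, had its promoter peak (chr11:83529788-83530936) at 48.9 and 49.7 CPM in spleen and 22.6 and 24.3 CPM in liver (1.07 ± 0.19, adjusted p = 6.60e-07, cyclic loess 0.55). Dusp2, a phosphatase gene induced on activation, had its promoter at 183.1 and 128.5 CPM in spleen and 48.9 and 73.5 CPM in liver (1.35, adjusted p = 1.91e-08, cyclic loess 0.42). Cd247, for the CD3 zeta chain through which NK receptors signal, had an intron peak at 47.9 and 51.7 CPM in spleen and 23.6 and 25.7 CPM in liver (1.01, adjusted p = 2.18e-06, cyclic loess 0.67). The proliferation genes Birc5 (1.16) and Mki67 (1.06) and the promoter of Tcf4 (1.24), an E-protein gene on the dendritic cell list, also had this call, as did Ski. The Ski promoter alone had it in each fit without 1 library. Under cyclic loess Ccl5 lost its call without spleen replicate 2 or either liver replicate, Mki67 without spleen replicate 1 or either liver replicate, and Dusp2 without spleen replicate 1 or liver replicate 1. Cd247 and Birc5 lost theirs without liver replicate 1, and Tcf4 without spleen replicate 1.

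Granule and NK receptor genes had no peak higher in spleen under every scaling. Of 55 peaks of cytotoxic granule genes, 17 were higher in spleen (30.9%, beside 20.9% of all peaks) and 5 in liver (9.09%, beside 19.8%) under TMM (median 0.32). Under cyclic loess 4 and 6 were called (median 0.02), beside 6.71% and 8.65% of all peaks. Under all 9 the counts were 0 and 2 (3.64%), beside 2.29% and 5.07%. Prf1, which encodes the pore former perforin, had a peak 3.37 kb downstream of its start at 27.1 and 24.2 CPM in spleen and 11.1 and 16.4 CPM in liver (0.91 ± 0.21, adjusted p = 0.000125, cyclic loess 0.70, 8 scalings). Gzmm, for the NK granzyme M, stood at 0.75 (cyclic loess 0.95), at 26.2 and 27.5 CPM against 16.2 and 15.8 CPM. The 2 peaks higher in liver under all 9 belong to Gzmc, for the granzyme of a liver ILC1 subset, and to Gzmb. The Gzmc peak, 4.09 kb downstream of the start, read 11.2 and 7.72 CPM in liver and 1.80 and 3.52 CPM in spleen (-1.86 ± 0.32, adjusted p = 3.62e-07, cyclic loess -1.45), and its promoter read 5.87 and 4.50 CPM against 2.78 and 2.83 CPM (-0.90, adjusted p = 0.0162, cyclic loess -0.59, adjusted p = 0.211). The Gzmb peak, 3.99 kb upstream, stood at -0.93, while the Gzmb promoter was higher in spleen under TMM (0.51, adjusted p = 0.0272) and at -0.27 under cyclic loess (adjusted p = 0.108). Among 88 peaks of Ly49, NKG2 and related NK receptors, 10 were higher in spleen (11.4%) and 8 in liver (9.09%) under TMM, both shares below those of all peaks, with a median of 0.01, then 8 and 15 under cyclic loess, and none under all 9. Ncr1, for the sorting antigen NKp46, had an intergenic peak at 11.3 and 10.3 CPM in spleen and 3.26 and 6.43 CPM in liver (1.18, adjusted p = 0.00218, cyclic loess 1.76). Klrc3 (0.86, cyclic loess 1.23) and Klrk1 (0.80, cyclic loess 0.73), for NKG2 receptors, had promoter-type peaks higher in spleen under both, and the Ly49 and NKG2 genes are near copies of each other, so reads may be split among them. Under TMM itself the Prf1 and Ncr1 calls were lost without liver replicate 1, that of Klrk1 without spleen replicate 1, and that of Klrc3 without either. The promoter calls of Gzmc and Gzmb were lost without liver replicate 1 or either spleen replicate. Under cyclic loess the liver-higher Gzmc and Gzmb peaks lost their calls without spleen replicate 1 or liver replicate 1, and the Gzmb peak also without liver replicate 2.

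Peaks higher in liver under all 9 scalings lay mostly outside promoters, 2071 of 2598, and the 12 named for their fold were of several types. Krt8, a keratin gene of epithelial cells, had an intergenic peak 2.70 kb upstream at 12.3 and 8.53 CPM in liver and 0.655 and 1.17 CPM in spleen (-3.53 ± 0.40, adjusted p = 6.23e-15, cyclic loess -2.92). ILC1s of liver and salivary gland had it at 8.07 and 5.22 CPM, and of the other 2 Krt8 peaks the one at 26.9 kb was called higher in spleen under TMM (0.58, cyclic loess 0.08), though not without liver replicate 1. Sept9, for a septin of the cytoskeleton, had the largest fold toward liver among these 12, which were limited to 5 CPM or more in the higher group. Its peak read 12.5 and 10.8 CPM in liver against 0.818 and 1.17 CPM in spleen (-3.55 ± 0.43, adjusted p = 1.97e-13). In ILC1s that peak stood at 5.44 CPM in liver and 0.472 CPM in salivary gland. An intron peak of Abr stood at -2.78, one of Herc1 at -2.77 and an exon peak of Ell, an elongation factor gene, at -2.60. The promoter of the olfactory receptor gene Olfr1377 read 1.06 and 0.879 CPM in spleen and 6.53 and 7.40 CPM in liver (-2.82). A promoter-type peak of Tom1l2 stood at -2.65, and peaks of Cdc42ep2 and Dtnb at -2.74 and -2.62. Intron peaks of Tcf12, an E-protein factor of lymphocytes, and Enah both stood at -2.57, and the Enah call was lost under cyclic loess without spleen replicate 1. Under every scaling, 52 genes had 3 or more peaks higher in liver and none higher in spleen, and no gene had the reverse. The peaks themselves were 2598 to liver and 1176 to spleen, and outside promoters 2071 and 97. Under TMM the same rule gave 269 genes to liver and 150 to spleen. The 52 were led by Snx29 with 9 of 32 peaks, Hivep3 with 6 of 39, Thada with 6 of 22 and Zcchc14 with 6 of 9.

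Lymphocyte transcription factor genes had peaks of both directions under TMM, also within single genes. Of their 314 peaks, 53 were higher in spleen (16.9%) and 51 in liver (16.2%) under TMM, with a median of -0.05. Both shares lay below the 20.9% and 19.8% of all peaks. Under cyclic loess 6 and 49 were called (median -0.10), beside 6.71% and 8.65% of all peaks. Under all 9 the counts were 0 and 17 (5.41%, near the 5.07% of all peaks). These 17 peaks lay in 12 genes, and the count was 6 to 13 over the 4 left-out libraries. Stat4, which carries the IL-12 signal in NK cells, had 3 of its 17 peaks in the set. Its exon peak (chr1:51996281-51997759) read 8.48 and 9.81 CPM in liver and 2.37 and 0.977 CPM in spleen (-2.40 ± 0.35, adjusted p = 1.82e-09, cyclic loess -1.92). The Stat4 promoter read 27.0 and 35.6 CPM in liver and 47.1 and 39.4 CPM in spleen (0.47, adjusted p = 0.0359), a call that cyclic loess did not make (-0.16, adjusted p = 0.462). Rora, for a nuclear receptor of innate lymphoid cells, had 3 of 19 peaks in the set, at -1.30, -1.78 and -2.49. Tox, needed for NK development, had 2 of 19, and Irf4, a factor of activated lymphocytes, had an exon peak at 17.0 and 20.4 CPM in liver and 6.96 and 6.35 CPM in spleen (-1.48 ± 0.26, adjusted p = 8.01e-07). Other peaks of these genes were called higher in spleen under TMM: an intron peak of Rora (0.76, cyclic loess -0.07), an intron peak of Stat4 (0.54, cyclic loess -0.32) and 2 peaks of Runx3. The Runx3 peak at 26.6 kb read 26.3 and 29.0 CPM in spleen and 12.5 and 16.1 CPM in liver (0.96, adjusted p = 8.52e-05, cyclic loess 0.85, 8 scalings), and an intron peak stood at 0.83 (cyclic loess 0.13). Single peaks of Runx3 (-2.02), Bach2 (-2.37), Runx2 (-1.38), Nfil3 (-1.36) and Foxo3 (-1.06) were also higher in liver, as was a Zeb1 peak near the limit of detection, at 1.31 and 0.804 CPM in liver and 0.0818 and 0 CPM in spleen. Under TMM itself the calls of Nfil3, Foxo3, the Rora peak at -1.30 and the Stat4 peak at -1.56 were lost without liver replicate 1, and 1 of Tox (-1.01) without spleen replicate 1. The Stat4 exon peak and the Irf4 peak were called under all 9 scalings in each fit without 1 library. Eomes and Tbx21, the T-box factors that define NK cells and ILC1s, had no such peak. The Eomes promoter read 123.7 and 112.4 CPM in spleen and 64.1 and 76.3 CPM in liver (0.75, adjusted p = 0.000795) and stood at -0.03 under cyclic loess (adjusted p = 0.902). The Tbx21 promoter, at 51.2 and 45.0 CPM against 27.1 and 32.5 CPM, went from 0.70 (adjusted p = 0.00117) to 0.15 (adjusted p = 0.541), and its TMM call was lost without liver replicate 1.

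Immediate early genes, which cells switch on within minutes of a stimulus or of handling, changed direction with the scaling. Under TMM 29 of their 80 peaks were higher in spleen (36.2%, beside 20.9% of all peaks) and 7 in liver (8.75%, beside 19.8%). Under cyclic loess 2 and 12 were called, beside 6.71% and 8.65% of all peaks. Under all 9 scalings the counts were 1 (1.25%) and 2 (2.5%), beside 2.29% and 5.07%. The strongest class of all peaks moved likewise, from 5480 and 18 under TMM to 764 and 883 under cyclic loess. The peak of Jun, for an AP-1 subunit, read 327.4 and 259.5 CPM in spleen and 145.9 and 177.4 CPM in liver. It was called higher in spleen under TMM (0.86, adjusted p = 0.00118) and higher in liver under cyclic loess (-0.37, adjusted p = 0.0014). The Ier2 promoter went from 1.08 (adjusted p = 3.66e-06) to 0.16 (adjusted p = 0.31). One intergenic peak of Nr4a3, an orphan receptor gene induced by receptor signalling, and a distal peak of Maff, for a small Maf factor, were higher in liver under every scaling (-1.73 and -1.62). Other Nr4a3 peaks were called higher in spleen under TMM, at 31.5 kb with 42.9 and 37.4 CPM in spleen and 18.4 and 23.6 CPM in liver (0.94, cyclic loess 0.58, 8 scalings), at 29.8 kb (0.68, cyclic loess -0.06) and at the promoter (0.99, cyclic loess -0.06). Under TMM the Jun call was lost without spleen replicate 1 or liver replicate 1. Under cyclic loess the Nr4a3 call to liver was lost without liver replicate 2, and the Maff call without spleen replicate 1 or liver replicate 1. The preparation differed between the organs, and its part in these values was not tested.

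Other pathway lists were read by the same counts, beside shares over all peaks of 20.9% to spleen and 19.8% to liver under TMM, 6.71% and 8.65% under cyclic loess and 2.29% and 5.07% under all 9. Of 104 peaks of TGF-beta pathway genes, 17 were higher in spleen (16.3%) and 21 in liver (20.2%) under TMM, 3 and 7 under cyclic loess and 1 and 1 under all 9, the Ski promoter and an intron peak of the receptor gene Tgfbr2 at 11.7 and 13.2 CPM in liver and 6.30 and 6.15 CPM in spleen (-1.0). The promoter of Smad2, a signal carrier of that pathway, went from 1.13 to 0.09 under cyclic loess. Of 37 peaks of interferon-stimulated genes, 8 (21.6%) and 2 (5.41%) were called under TMM, 4 and 0 under cyclic loess and none under all 9. The promoters of Ddx58, for the RNA sensor RIG-I (0.93, cyclic loess 0.80), and of the antiviral Rsad2 (0.93, cyclic loess 0.86) were higher in spleen under both. Of 71 cell cycle peaks 23 (32.4%) and 9 (12.7%) were called under TMM, 6 and 6 under cyclic loess, and 2 and 1 under all 9. The 1 was an intergenic peak of Rrm2, for a subunit of ribonucleotide reductase, at 27.5 and 20.8 CPM in liver and 6.79 and 11 CPM in spleen (-1.45, adjusted p = 4.15e-08). The promoter of Mcm4, for a replication helicase subunit, went from 1.25 (adjusted p = 2.26e-07) to 0.27 (adjusted p = 0.059). Inhibitory receptor genes gave 5 and 8 of 53 peaks under TMM, 0 and 6 under cyclic loess and 0 and 2 under all 9, in Ctla4 (-1.24) and Btla (-0.77), and the Btla call was lost under TMM without spleen replicate 1. NK maturation genes gave 17 and 11 of 85 under TMM, 3 and 7 under cyclic loess and 0 and 2 under all 9. Cytokine genes gave 6 and 2 of 38, then 2 and 7, then 1 and 2, where the latter were Csf1 and a peak 2.53 kb upstream of Il2 (-1.11). Cytokine and chemokine receptor genes gave 19 and 11 of 98, then 5 and 11, then 0 and 2, in Cx3cr1 and in an intron of Il21r (-2.05).

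**Figure D5:**
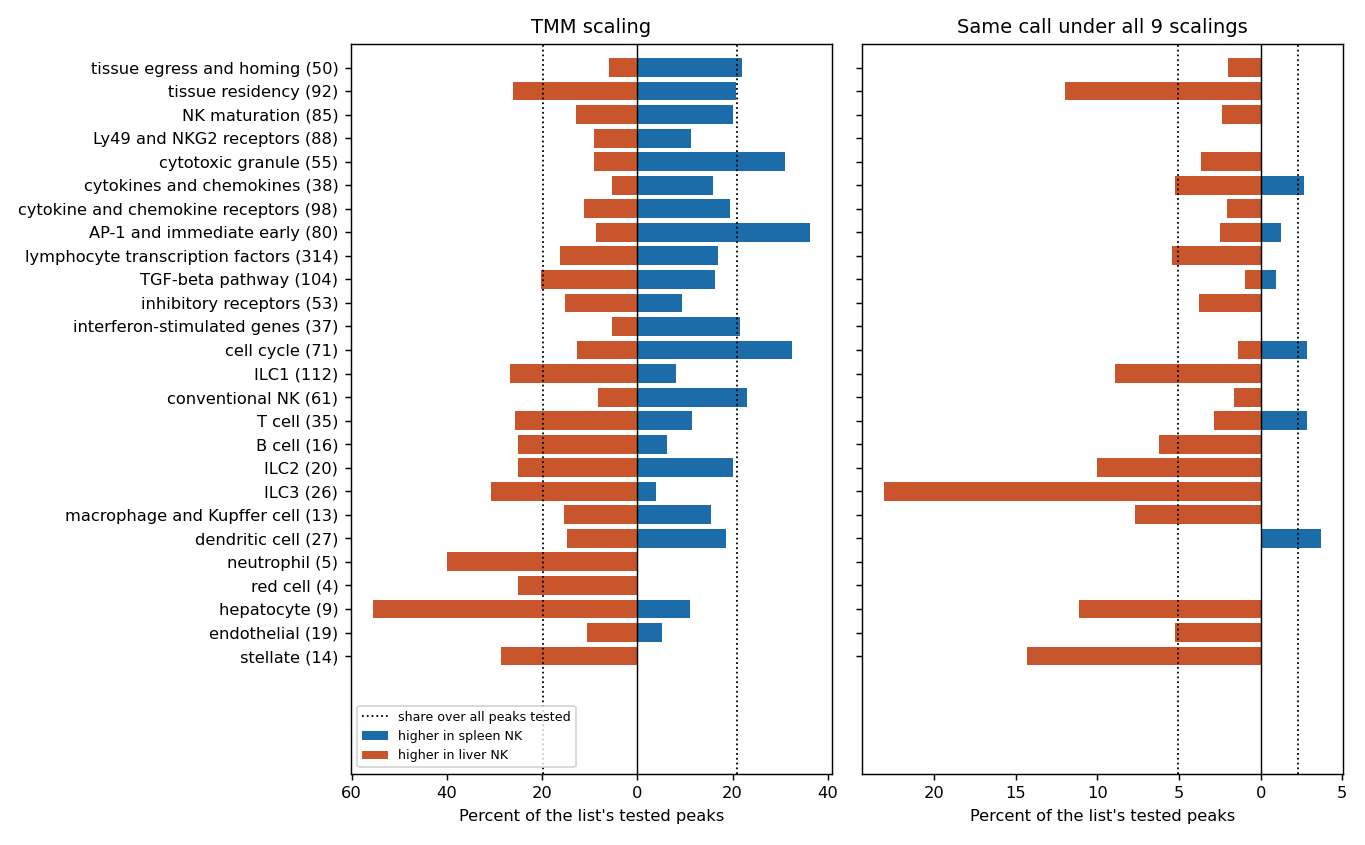
Percent of each list's tested peaks called higher in spleen NK cells (right) or liver NK cells (left), under TMM scaling in the left panel and with the same call under all 9 scalings in the right panel; dotted lines give the share over all peaks, and the number of peaks stands in brackets. Residency genes reach 12% toward liver under all 9 scalings against 5.07% of all peaks. The share of immediate early peaks higher in spleen is 36.2% under TMM and 1.25% under all 9. That of all peaks is 20.9% and 2.29%.

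Markers of ILC1s were next compared, since the liver NK gate borders on them. Of 112 peaks of 16 ILC1 marker genes, 9 were higher in spleen under TMM (8.04%, beside 20.9% of all peaks) and 30 in liver (26.8%, beside 19.8%), with a median of -0.38. Under cyclic loess 5 and 14 were called (median -0.16), beside 6.71% and 8.65% of all peaks. Under all 9 the counts were 0 and 10 (8.93%, beside 5.07%, and 4 to 12 over the 4 left-out libraries). The 10 peaks lay in 8 genes. Ccr8, a chemokine receptor of resident lymphocytes, had both of its peaks among them. The promoter (chr9:120090719-120092463) read 17.0 and 14.0 CPM in liver and 4.66 and 6.06 CPM in spleen, with liver ILC1s at 17.7 CPM (-1.54 ± 0.27, adjusted p = 3.41e-07, cyclic loess -1.37), and the peak 9.18 kb upstream stood at -1.82. Tmem176a (-1.93) and Tmem176b (-1.34), which encode related membrane proteins, Inpp4b (-1.24), Cd200r2 (-0.93) and Gpr55 (-0.87) gave 1 peak each beside Itga1 and Zfp683. Both Ccr8 peaks and the Itga1 peak at 73.4 kb had the call in each fit without 1 library, while that of Gpr55 was lost under TMM without liver replicate 1 and those of Tmem176a and Inpp4b under cyclic loess without liver replicate 1. The whole list summed to 1147 and 1193 CPM in liver and 1222 and 1139 CPM in spleen NK cells, so the sums overlapped, against 1614 to 2217 CPM in ILC1s. The 3 Cxcr6 peaks of this list are the low ones given above. Of 61 peaks of conventional NK markers, 14 were higher in spleen under TMM (23.0%, near the 20.9% of all peaks) and 5 in liver (8.2%, beside 19.8%). Under cyclic loess 5 and 4 were called, beside 6.71% and 8.65% of all peaks. Under all 9 the counts were 0 and 1 (1.64%), beside 2.29% and 5.07%. Their sums were 1170 and 1398 CPM in liver and 1790 and 1665 CPM in spleen.

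Other cell types were sought by their markers. Shares over all peaks, for the counts below, were 20.9% to spleen and 19.8% to liver under TMM and 2.29% and 5.07% under all 9. The sums in this and the preceding paragraph are of TMM-scaled counts, under which weak peaks leaned to liver and strong ones to spleen. From TMM to cyclic loess the median log2 fold change went from -0.98 to -0.39 for hepatocyte genes. It went from -0.62 to -0.14 for stellate cell genes and from -0.48 to -0.12 for ILC3 genes. For neutrophil genes it went from -0.31 to -0.42, and for ILC2 genes from -0.27 to -0.28. Of 14 genes of hepatocytes only 5 had peaks, and their 9 peaks summed to 91.4 and 95.9 CPM in liver and 81.1 and 75.9 CPM in spleen; 1 was higher in spleen and 5 in liver under TMM, and 1, at Apoa1, in liver under all 9 (-2.17). The 14 peaks of stellate cell genes summed to 120.1 and 102.0 CPM in liver and 70.9 and 77.1 CPM in spleen, with 2 higher in liver under all 9, at Col1a2 (-1.56) and Lhx2 (-0.84). Endothelial genes summed to 232.5 and 237.3 against 214.9 and 214.6 CPM, with 1 peak, at Stab2 (-1.28). Of 16 macrophage and Kupffer cell genes 8 had peaks, with Lyz2 and Adgre1 among those without. They summed to 174.1 and 182.8 against 188.0 and 200.0 CPM, with 1 peak, at C1qa (-1.94). T cell genes summed to 481.2 and 510.9 against 590.1 and 553.8 CPM, with Cd3g at -1.86 and Cd247 at 1.01 under all 9. Of 14 B cell genes 9 had peaks, with Cd79a and Ms4a1 among those without. They summed to 194.9 and 181.5 against 218.6 and 204.3 CPM, with 1 peak, at Fcmr (-1.08). ILC3 genes gave 6 of 26 peaks to liver under all 9 (23.1%, beside 5.07% of all peaks, and 0 to 4 over the 4 left-out libraries), among them 3 in Nrp1 and 1 each in Il1r1 and Il23r, at summed levels of 293.7 and 267.2 against 218.7 and 221.4 CPM. Of 20 ILC2 gene peaks 2, both at Il13 (-0.97 and -1.77), were also higher in liver. Without liver replicate 1 the calls of Il23r and Il13 were lost under TMM itself, and without spleen replicate 1 that of Lhx2. Dendritic cell, neutrophil and red cell genes had no peak higher in liver under all 9. The part of other cells in the results was not tested.

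A few of the strongest liver-higher peaks were not like the rest. Among peaks higher in liver under all 9 scalings, 20 had a mean of 40 CPM or more, and 14 of these were assigned to predicted genes and 2 to none. They took 2.04% and 2.48% of all counts in liver NK cells, 0.717% and 0.587% in spleen NK cells, 2.48% and 2.03% in liver ILC1s and 0.936% and 0.642% in salivary gland ILC1s. The strongest, Gm10800 (chr2:98666067-98667507), reached 8172.0 and 10895.9 CPM in liver and 4098.7 and 3019.3 CPM in spleen NK cells. Such intervals on chromosomes 2 and 9 are known as repeat regions where reads pile up in many assays. They separated the organs in NK cells and ILC1s alike, and they are a small number of the 2598 peaks.

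The ILC1 libraries, which share no library with the NK comparison, were read for the same peaks between salivary gland and liver. Of the 2598 peaks higher in liver NK cells, 1152 were higher in liver ILC1s (44.3%) and 598 in salivary gland ILC1s (23.0%) under cyclic loess, beside 21.9% and 21.0% of all peaks. Under TMM the shares were 51.7% and 16.6%, beside 25.9% and 22.8%. Of the 1176 peaks higher in spleen NK cells, 158 were higher in liver ILC1s (13.4%) and 138 in salivary gland ILC1s (11.7%) under cyclic loess, while TMM gave 0.595% and 40.2%. Within ILC1s the spleen set thus leaned to salivary gland under TMM and to neither organ under cyclic loess. Over the liver set, which was chosen on the NK values, medians were 11.9 CPM in liver NK and 4.61 CPM in spleen NK cells. Liver ILC1s had 9.96 CPM there and salivary gland ILC1s 5.56 CPM. Over all peaks tested the medians were 10.8 CPM in liver NK cells, 8.76 in spleen NK cells, 9.98 in liver ILC1s and 9.02 in salivary gland ILC1s. All liver libraries, NK and ILC1, shared the digestion and Percoll steps, and salivary glands were digested with another collagenase.

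Promoter letters were counted where a peak covered a gene's start. A window of 300 bases around the start was found for 8993 of 17983 promoter peaks, 872 of them higher in spleen and 124 higher in liver under all 9 scalings. All motifs were searched on both strands, and those of ETS factors, NRF1 and the CCAAT box were added after the data had been seen. The ETS letters CCGGAAGT stood in 15.4% of spleen-higher windows, 0.806% of liver-higher windows and 8.44% of all 8993. CCAAT stood in 54.7%, 34.7% and 37.9%, with the Pcx promoter above as an example, and the NRF1 palindrome, in capitals in Mrpl32, in 3.67%, 0.806% and 2.02%. Among windows of neither set at 20 CPM or more, which are also strong, the shares were 7.88% for ETS, 38.0% for CCAAT and 2.07% for NRF1. Median GC content was 60.7% in both sets and 61.3% over all. Median CpG counts differed, at 23 in spleen-higher and 17 in liver-higher windows, 21 over all and 23 in the strong windows of neither set. The ETS letters and the NRF1 palindrome both contain CpG. With 124 liver-higher windows, the small shares in that set rest on very few windows. The KLF letters, present before the Klf2 start, stood in 67.4% of spleen-higher and 71.8% of liver-higher windows against 69.2% of all. T-box letters AGGTGTGA stood in 0.573%, 3.23% and 0.956%, AP-1 letters TGANTCA in 4.47%, 7.26% and 4.67%, and RUNX letters TGTGGT in 13.4%, 12.9% and 13.1%. Over all 32817 windows of the RefSeq table the shares were 3.89% for ETS, 37.4% for CCAAT, 0.966% for NRF1, 49.5% for KLF, 1.27% for T-box, 7.81% for AP-1 and 16.8% for RUNX. These are matches of letters, and no binding was measured here.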

How the data were processed

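Accessible chromatin was profiled in 8 libraries, and the 4 NK libraries are compared here. The values are the authors' deposited counts per peak, whole numbers for 51412 peaks of 1 shared set, each with a type and, for all but 5520, a gene. Bowtie2, SAMtools, MACS2 and mm10 are named per the submitters' processing notes; how reads were counted and filtered is not given in the sources used here.

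Each peak's counts entered edgeR 4.0.16 (quasi-likelihood fit, R 4.3.3), with filterByExpr at a minimum count of 10 (51292 peaks), TMM scaling, robust dispersions, and 1 mean per group over all 8 libraries (4 residual degrees of freedom). Tests are 2-sided with Benjamini-Hochberg adjustment over all peaks and calls at 0.05. SE is that of the log2 fold change. CPM uses TMM-adjusted library sizes. The fit was tested on simulated counts of 47734 peaks, which did not hold the level-dependent shift seen between these libraries. Log2 changes of 2 were recovered in 97% of changed peaks under TMM and cyclic loess, and changes of 1 in 32% and 34%. The simulation therefore does not bear on the choice of scaling. With 2 libraries a group, and nothing that ties them to separate animals, p-values measure the spread between these libraries, which may be technical.

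The 8 other scalings, DESeq2 1.42.0, other filters, a replicate block, thinning to 5609587 counts and left-out libraries were tried. The rule of 1 call under all 9 scalings, the filter at 50 counts, the removal of peaks in the first 4 Mb of chromosomes, and cyclic loess (limma 3.58.1, offset 0.5) with other samples or the block were added after seeing the data. Named peaks are the 12 with the largest folds in each direction (called, 5 CPM or more in the higher group, groups not overlapping, no predicted gene, and for each gene its peak of smallest p), the genes with most called peaks in 1 direction, the peak of smallest p of listed genes, and all peaks of Klf2 and Itga1. Listed genes' peaks with 1 call under all 9 scalings, and the other Tex14 peaks, further promoters of listed genes and the strong liver-higher peaks, were named after their values were seen. The members and lists were chosen with earlier results of these data known. Distances and promoter sequences come from RefSeq on GRCm38.p6, which shares coordinates with mm10. A few genes of the lists are counted but not reported by name here.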

Additional observations from a re-analysis of the deposited data

How the results depend on the processing

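The counts of peaks higher in spleen and in liver moved by over 1.5 times with several scalings: total counts in peaks (5277 and 18704), upper quartile (6754 and 15577), TMM on promoter peaks (4438 and 20589), promoter totals (2680 and 26442) and cyclic loess (3443 and 4437); TMM on non-promoter peaks did so for liver (6739). Leaving out 1 library gave 6049 to 10045 and 4555 to 8019, cyclic loess without spleen replicate 1 or 2 or liver replicate 1 or 2 gave 1181, 2885, 828 and 1867 for spleen and 1777, 3759, 1465 and 2707 for liver, and the calls shared by all 9 scalings 449 to 869 and 672 to 2278. DESeq2 gave 9565 and 7350, no filter 10706 and 10138, a minimum of 50 counts 10055 and 10223, NK libraries alone 11273 and 10609, thinned libraries 9647 and 8696, and peaks beyond the first 4 Mb of chromosomes 10611 and 10042. Cyclic loess on NK libraries alone gave 3357 and 4246. The replicate block gave 10930 and 10311 under TMM and 3549 and 4543 under cyclic loess. Same-numbered spleen and liver NK libraries deviated from their group means with r = -0.0559. Over all pairs of groups r ran from -0.142 to 0.203, the latter for liver NK cells and liver ILC1s. With 2 libraries a group such a value cannot show whether animals were shared, and the numbers were not taken to pair the libraries. The Klf2 promoter stood at 0.22 under cyclic loess, 0.06 with NK libraries alone, 0.22 with the block and 0.33, 0.18, 0.07 and 0.42 with those libraries left out in turn, and of these was called only without liver replicate 2. The Itga1 peak at 44.7 kb kept its direction at -1.33 without spleen replicate 1 and -1.52 without liver replicate 1 under cyclic loess. Some values changed sign. With promoter totals the Itga1 peaks at 90.1, 11.9 and 3.38 kb stood at -0.43, -0.16 and -0.42, and S1pr1 at -0.09. Under cyclic loess the Itga1 peak at 11.9 kb stood at -0.14 (NK alone -0.10, block -0.15, left out -0.31 to -0.01, with -0.20 without liver replicate 1), Jun at -0.37 (-0.36, -0.37, -0.42 to -0.32, with -0.35 without liver replicate 1), Eomes at -0.03 (-0.17, -0.03, -0.03 without liver replicate 1 and -0.0 without spleen replicate 2), and S1pr1 at -0.07 with NK alone and -0.02 and -0.01 without liver or spleen replicate 1. The cause was not tested. The liver libraries had the lower depth. The lower-ranking 25706 peaks, however, took 10.3% and 11.6% of the spleen counts against 21.1% and 18.5% of the liver counts. Low counts in weak peaks were thus not confined to liver.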
